A study of Homo sapiens with 15 samples.

Results

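The PARP and tankyrase family comprises enzymes that attach ADP-ribose, taken from NAD, to proteins. 10 of its genes were followed here through every probe of the array whose RefSeq accession belongs to PARP1, PARP2, PARP3, PARP4, PARP6, PARP8, PARP11, PARP16, TNKS or TNKS2. That rule found 14 probes of the 34127 on the array, and the 10 genes stand among 19483 named ones. PARP1, PARP4, PARP6 and PARP11 have 2 probes each and the other genes 1.

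HCT116, a human colon cancer line, was transfected and grown as tumors in athymic nude mice, and the RNA of 15 tumors was measured on single-color Agilent arrays, 1 tumor per array. 3 tumors carried empty pCDNA3 vector (Vector), 3 Myc-tagged wild type MOAP-1, a BH3-like protein that activates the death effector Bax, 3 Myc-tagged MOAP-1 with lysine changed to arginine (K264R), 3 the corresponding K278R change, and 3 HA-tagged RASSF1A, a partner of MOAP-1. Every tumor grew from the same line, expression was transient by the study's methods, and the cells injected were transfected pools and not single clones. The labels do not say whether tumors of 1 construct came from separate transfections, so p values measure the spread between these tumors. The series was made to compare constructs pairwise, and the comparisons below ask whether ADP-ribosyltransferase transcripts differed between them.

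Poly(ADP-ribose) polymerases such as PARP1 and PARP2 bind broken DNA and build chains of ADP-ribose that recruit repair factors, and the chains are removed again by PARG and other hydrolases. Tankyrases (TNKS and TNKS2) build chains on targets such as axin and the telomere protein TRF1. The ligase RNF146 then marks the modified axin for degradation. Most other members, among them PARP3, PARP6, PARP8, PARP11 and PARP16, add a single ADP-ribose. PARP1 is also a classic substrate of caspases during apoptosis, which is a change of the protein and is not read by an RNA array.

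Levels are log2 values relative to the 75th percentile of the same array, so 0 is the level of a fairly bright probe and -6 lies far down toward background. Such levels compare tumors at 1 probe and not 1 probe with another. A probe was called when the limma fit over all 15 arrays gave a Benjamini-Hochberg adjusted p below 0.05, over the 30585 probes kept on the array, and a change of at least 1.5-fold. All 14 member probes were among those kept. As a check of the constructs, the MOAP1 probe was 0.86 higher (log2, SE 0.14, adjusted p 0.000855) in MOAP-1 than in vector tumors. It was 0.74 higher in K278R (adjusted p 0.00509) and 0.55 higher in K264R (adjusted p 0.00928), the last short of 1.5-fold. In MOAP-1 against vector, 9.87% of all kept probes were called higher and the groups shared no slide, so the insert itself was not verified. The study reported expression in culture for a shorter time than the tumors grew. The RASSF1 probe was not higher in the tumors labelled RASSF1A than in vector tumors (change -0.12, SE 0.10, adjusted p 0.67). Whether that probe lies in the transfected insert is not given in the sources used here, so the label stands unchecked and is used below as given. All 10 probes of colon epithelial markers were well above background on every array. Their summed linear level was 326.3 to 386.6 in vector tumors and wholly below that in MOAP-1 (264.5 to 315.4) and K264R tumors (259.4 to 278.2), while it was 224.9 to 335.5 in K278R and 282.3 to 326.6 in RASSF1A tumors. At the brightest probe of each of the 8 marker genes the median change against vector was -0.26 in MOAP-1, -0.28 in K264R, -0.25 in K278R and -0.21 in RASSF1A, and of these limma called only CLDN3 in K264R (-0.63, adjusted p 0.0212). The 8 changes ran from -0.47 to 0.74 in MOAP-1, from -0.63 to 0.59 in K264R and from -0.42 to 0.88 in K278R. In RASSF1A they ran from -1.08 to 0.02.

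The summed linear level of 9 probes for fibroblast markers, which on a human array can come from mouse host cells, ranged from 2.04 to 7.73 in vector tumors (6 to 7 of the 9 well above background) and from 5.75 to 44.6 in MOAP-1 tumors (7 to 8). It ranged from 4.70 to 19.6 in K264R, from 10.98 to 41.7 in K278R and from 8.08 to 11.47 in RASSF1A tumors, with 8 of the 9 probes well above background in each. The corresponding sums were 2.66 to 2.85 in vector and 2.71 to 4.17 elsewhere for 8 endothelial probes, and 8.91 to 9.14 in vector and 8.29 to 13.6 elsewhere for 8 leukocyte probes. LUM, TEK and LYZ had no kept probe. Against vector, the median change at the brightest probe per fibroblast marker was 1.89 in MOAP-1 and 1.73 in K278R. It was 0.57 in K264R and 1.03 in RASSF1A. By limma, 1 of 7 fibroblast and 1 of 5 leukocyte markers were called higher in MOAP-1, with the same counts in K278R. In these comparisons 15% and 9.56% of all genes were called in either direction. No other host marker was called against vector. The part of tumor-cell and host-cell content in the member results was not tested. In whole tumors, fewer cells of a type and less RNA per cell cannot be told apart.

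PARP1, PARP3, PARP6 and PARP11 each had a probe called higher than vector in MOAP-1, K264R and K278R tumors. The second probes of PARP1 and PARP11 were not called against vector, and that of PARP6 only in MOAP-1. For these 4 genes, chosen by the called probe alone, the 250 bases before the RefSeq start site (GRCh38.p14) are shown side by side. They run 5′ to 3′ on the strand of the gene. Capitals mark the GC box, GGGCGG, or CCGCCC where it lies on the other strand.
PARP1 (chr1:226408094-226408343, minus strand): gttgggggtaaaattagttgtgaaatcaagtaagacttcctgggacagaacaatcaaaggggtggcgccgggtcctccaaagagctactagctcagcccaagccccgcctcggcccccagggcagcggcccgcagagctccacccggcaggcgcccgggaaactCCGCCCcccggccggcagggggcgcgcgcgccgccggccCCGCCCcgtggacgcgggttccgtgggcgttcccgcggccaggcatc
PARP3 (chr3:51942113-51942362, plus strand): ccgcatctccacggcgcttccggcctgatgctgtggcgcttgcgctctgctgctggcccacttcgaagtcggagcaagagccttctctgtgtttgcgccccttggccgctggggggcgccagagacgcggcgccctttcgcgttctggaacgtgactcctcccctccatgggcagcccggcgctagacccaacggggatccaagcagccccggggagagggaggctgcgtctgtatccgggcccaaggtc
PARP6 (chr15:72272555-72272804, minus strand): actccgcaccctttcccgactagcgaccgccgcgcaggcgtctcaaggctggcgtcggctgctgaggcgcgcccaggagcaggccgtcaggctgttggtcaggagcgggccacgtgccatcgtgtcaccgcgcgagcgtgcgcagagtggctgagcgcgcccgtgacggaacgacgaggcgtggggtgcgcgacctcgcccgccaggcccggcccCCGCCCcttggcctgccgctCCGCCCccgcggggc
PARP11 (chr12:3873400-3873649, minus strand): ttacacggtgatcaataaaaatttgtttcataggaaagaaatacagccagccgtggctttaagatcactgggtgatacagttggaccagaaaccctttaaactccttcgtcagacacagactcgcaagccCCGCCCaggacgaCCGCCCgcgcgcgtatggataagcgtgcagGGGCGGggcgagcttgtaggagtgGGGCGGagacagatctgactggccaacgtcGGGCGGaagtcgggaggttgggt

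PARP1 and PARP6 held 2 GC boxes each in that window, PARP11 held 5 and PARP3 none. Of 35114 RefSeq promoters of the same length, 42.6% hold the box on at least 1 strand. RefSeq promoter entries were found for 8 of the 10 genes, 10 entries in all, of which 6 held a GC box. The CCAAT box, in 32.0% of all promoters, was in 1 of the 10 entries, at PARP8. The TATA box (TATAAA, 10.7% of all promoters), the ETS site (CCGGAAGT, 3.42%) and the E2F site (TTTGGCGC or TTTCCCGC, 1.93%) were in none of the 10, each searched on both strands. G and C made up 70.4% of the bases at PARP1, 68.4% at PARP3, 76.0% at PARP6 and 55.6% at PARP11, against a median of 58.0% over all promoters. These matches are descriptions of letters in a window and say nothing of which factors bind.

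**Figure D1:**
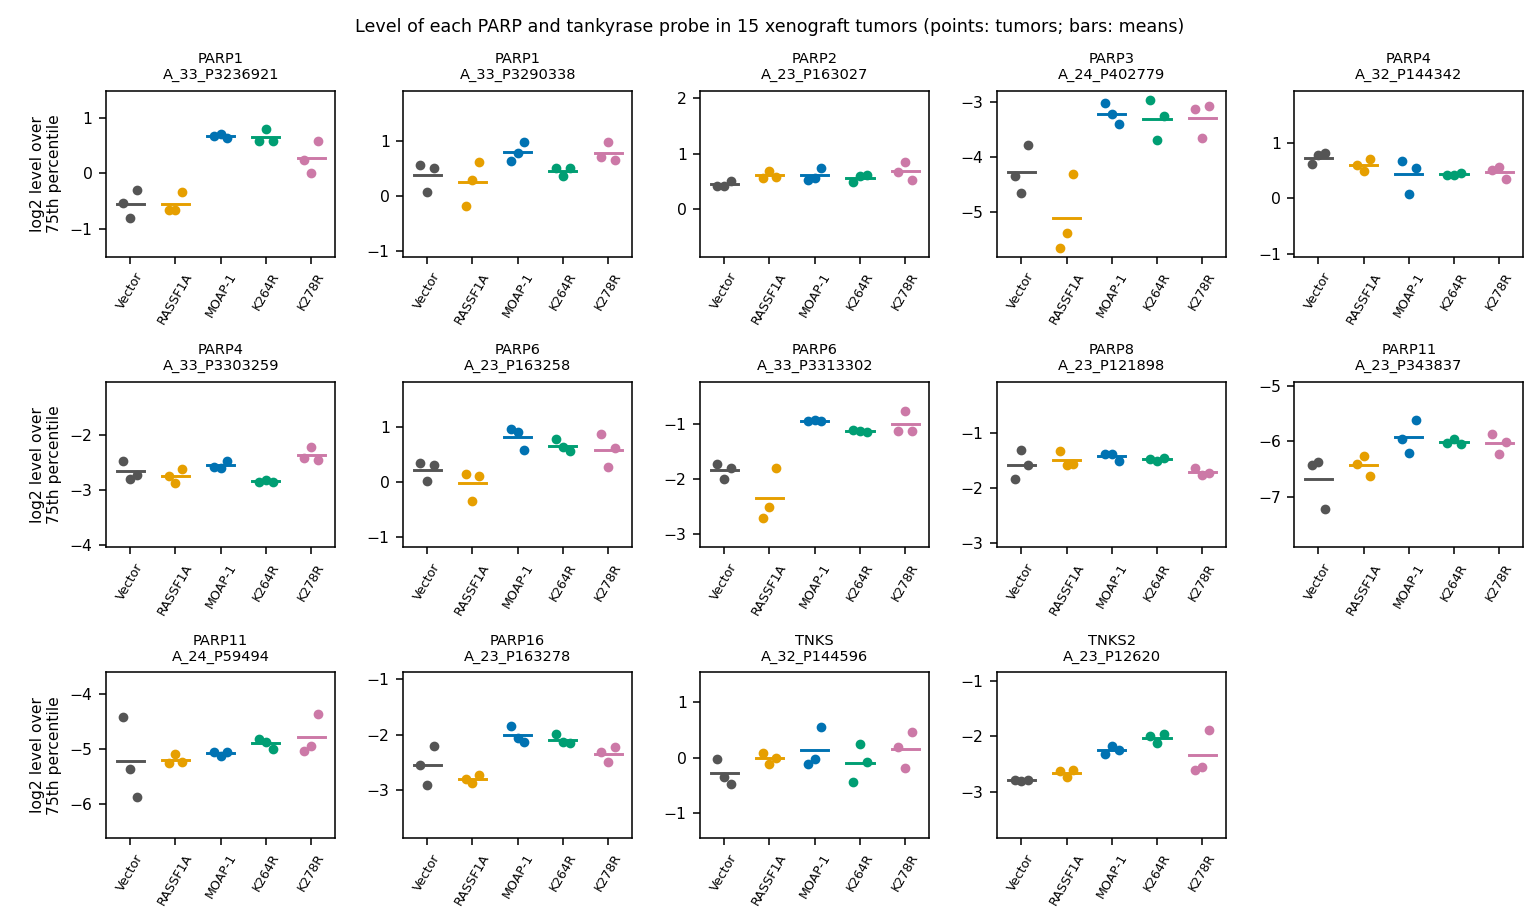
Log2 level relative to the 75th percentile of the array (vertical axis) of each of the 14 probes in each tumor, by construct (horizontal axis); points are tumors, bars are means of 3, and every panel spans the same height of 3 log2 units. PARP1 A_33_P3236921 and PARP6 A_33_P3313302 show MOAP-1, K264R and K278R tumors clear of the vector tumors, while PARP2 A_23_P163027 varies little, with a range of construct means of 0.24.

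PARP1, the main sensor of DNA breaks, was higher at 1 of its probes in MOAP-1, K264R and K278R tumors than in vector tumors. None of these 3 groups shared a slide with the vector tumors. At A_33_P3236921 the vector tumors had levels of -0.54, -0.81 and -0.29. The MOAP-1 tumors had 0.67, 0.72 and 0.65 and the K264R tumors 0.59, 0.80 and 0.59. K278R tumors were more scattered, at 0.25, 0.01 and 0.58. RASSF1A tumors, at -0.67, -0.67 and -0.34, lay within the vector range, while no tumor of the other 3 constructs fell into it. Against vector the change was 1.23 ± 0.16 (log2 ± SE, 2.34-fold, limma adjusted p 0.000261) in MOAP-1, 1.21 ± 0.16 (2.31-fold, adjusted p 0.000168) in K264R and 0.83 ± 0.16 (1.78-fold, adjusted p 0.00486) in K278R. In RASSF1A it was -0.01 ± 0.16 (adjusted p 0.99). All 3 calls held in each of the 15 fits that left out 1 tumor, where the MOAP-1 change ran from 1.096 to 1.356. The K278R call was lost under normexp background correction (0.63, adjusted p 0.18), in a fit of only the arrays compared (limma adjusted p 0.053) and with the methods' t-test (adjusted p 0.15), and the MOAP-1 and K264R calls held in all 3. Normexp also lowered the median change of all probes in these comparisons against vector, with values given in the section on processing. The study itself named PARP1 and PARP3 from its MOAP-1 and vector arrays, so these rows are not independent evidence of a direction. The study also reported more PARP protein by immunoblot in lysates of xenograft tumors overexpressing MOAP-1, which an RNA array does not read.

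The other PARP1 probe did not follow. A_33_P3290338 read 0.56, 0.08 and 0.51 in vector, 0.64, 0.77 and 0.98 in MOAP-1, 0.51, 0.37 and 0.50 in K264R, 0.71, 0.98 and 0.65 in K278R and -0.17, 0.29 and 0.63 in RASSF1A tumors. MOAP-1 tumors lay above every vector tumor, but K264R tumors lay among them. The changes against vector were 0.42 ± 0.19 (adjusted p 0.11), 0.08 ± 0.19 (0.77) and 0.40 ± 0.19 (0.14) for MOAP-1, K264R and K278R, and none was called. Both probes are assigned to the same RefSeq transcript, and which stretch of it each one reads is not given in the sources used here.

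The difference between both PARP1 probes was tested directly. Within a tumor, A_33_P3236921 minus A_33_P3290338 averaged -0.93 ± 0.16 (SD, n = 3) in vector and -0.81 ± 0.27 in RASSF1A, against -0.12 ± 0.19 in MOAP-1, 0.20 ± 0.20 in K264R and -0.50 ± 0.45 in K278R. The constructs differed (exact permutation test over 1401400 divisions of the tumors, p = 0.00455, adjusted over the 4 genes with 2 probes 0.0182). For PARP4 the exact permutation test gave p = 0.0201 (adjusted 0.0401). It gave adjusted p values of 0.111 for PARP6 and 0.297 for PARP11, so a difference between constructs was not shown there. The PARP6 difference, A_23_P163258 minus A_33_P3313302, was 2.06 ± 0.06 in vector and 1.78 ± 0.09 in K264R tumors.

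**Figure D2:**
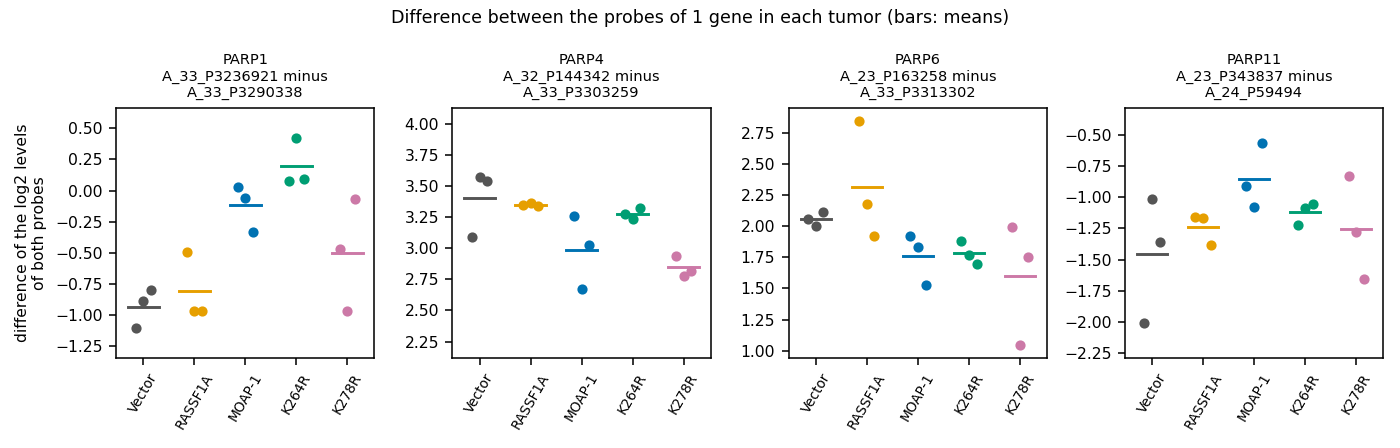
Difference between the log2 levels of both probes of 1 gene (vertical axis, log2) in each tumor, by construct (horizontal axis); points are tumors and bars are means of 3, and every panel spans 2 log2 units. For PARP1 the vector and RASSF1A means are -0.93 and -0.81 and the K264R mean is 0.20, while for PARP11 the vector tumors are the most scattered, with an SD of 0.51.

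PARP2, which acts beside PARP1 in single-strand break repair, was not called in any comparison. Its probe read 0.42, 0.42 and 0.50 in vector, 0.52, 0.55 and 0.75 in MOAP-1, 0.49, 0.59 and 0.61 in K264R, 0.67, 0.85 and 0.53 in K278R and 0.56, 0.69 and 0.58 in RASSF1A tumors. The vector tumors were low throughout, yet the change was small, at 0.16 ± 0.10 (95% interval -0.05 to 0.37) in MOAP-1 and 0.24 ± 0.10 (0.02 to 0.45, adjusted p 0.10) in K278R.

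PARP3, which works with non-homologous end joining at double-strand breaks, was a dim probe with high values in the same 3 constructs. Vector tumors read -4.36, -4.66 and -3.79. MOAP-1 tumors read -3.03, -3.23 and -3.41, K264R tumors -2.97, -3.69 and -3.27, and K278R tumors -3.13, -3.66 and -3.09. RASSF1A tumors were the lowest, at -5.65, -5.38 and -4.31, with the third inside the vector range. PARP3 rose by 1.05 ± 0.32 (2.07-fold, adjusted p 0.0258) in MOAP-1, 0.96 ± 0.32 (1.95-fold, adjusted p 0.0332) in K264R and 0.98 ± 0.32 (1.97-fold, adjusted p 0.0461) in K278R. Without vector tumor 2, the lowest of its group, none of these calls held (adjusted p 0.107, 0.127 and 0.174), with changes of 0.85, 0.77 and 0.78. The MOAP-1 and K264R calls held in 11 of the 15 fits that left out 1 tumor, also failing without vector tumor 1 (adjusted p 0.0675 and 0.0873), MOAP-1 tumors 1 and 2 (0.0753 and 0.0637) and K264R tumors 1 and 3 (0.123 and 0.0845). The K278R call held in 5 of 15. The spot stood at 1.14 to 3.38 times its local background, and under another background correction (normexp) the MOAP-1 change was -0.80 with adjusted p 0.27. The median change of all probes was also lower under that correction.

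PARP6, a mono-ADP-ribosyltransferase known from neuronal dendrites, was higher at both probes in MOAP-1 tumors. At A_33_P3313302 the vector tumors read -1.72, -1.99 and -1.80. The MOAP-1 tumors lay close together at -0.96, -0.93 and -0.96, as did the K264R tumors at -1.11, -1.13 and -1.15, and the K278R tumors read -1.13, -0.78 and -1.13. RASSF1A tumors 1 and 2 were far lower, at -2.70 and -2.51, and tumor 3, at -1.81, lay within the vector range. This probe rose by 0.89 ± 0.18 in MOAP-1 (1.85-fold, adjusted p 0.00313), 0.71 ± 0.18 in K264R (1.64-fold, adjusted p 0.00914) and 0.83 ± 0.18 in K278R (1.77-fold, adjusted p 0.00908). Those 3 calls held whichever single tumor was left out, but none held under normexp, with changes of 0.31, 0.32 and 0.24 (adjusted p 0.32, 0.65 and 0.46). The median change of all probes was also lower under normexp in these 3 comparisons, so the smaller changes are not particular to PARP6. The K278R call was also lost by the methods' t-test (adjusted p 0.14).

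The second PARP6 probe, A_23_P163258, moved less. It read 0.34, 0.01 and 0.31 in vector, 0.97, 0.91 and 0.57 in MOAP-1, 0.77, 0.64 and 0.55 in K264R, 0.87, 0.26 and 0.62 in K278R and 0.15, -0.34 and 0.12 in RASSF1A tumors. Only MOAP-1 was called against vector, at 0.60 ± 0.18 (1.51-fold, adjusted p 0.0216). That call lies just past 1.5-fold and was lost without vector tumor 2, MOAP-1 tumor 1 or MOAP-1 tumor 2 (adjusted p 0.0935, 0.0717 and 0.0717). K264R and K278R tumors had changes of 0.44 ± 0.18 (adjusted p 0.0697) and 0.37 ± 0.18 (adjusted p 0.15).

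PARP11, another mono-ADP-ribosyltransferase, was read close to background, with spots at 1.05 to 1.61 times their local background at A_23_P343837. Vector tumors 1 and 3 were not well above background there. The vector tumors read -6.43, -6.38 and -7.22, the MOAP-1 tumors -5.96, -6.21 and -5.61, the K264R tumors -6.03, -5.95 and -6.05, and the K278R tumors -5.86, -6.22 and -6.01. RASSF1A tumors, at -6.41, -6.26 and -6.62, overlapped the vector tumors. The fitted changes of 0.75 ± 0.21 (adjusted p 0.016), 0.67 ± 0.21 (0.0246) and 0.65 ± 0.21 (0.043) were all called. Without vector tumor 3 they were 0.48, 0.39 and 0.38, and none was called. The MOAP-1 call was also lost without MOAP-1 tumor 3 (adjusted p 0.069), the K264R call without any single K264R tumor (0.0567 to 0.0634), and the K278R call held in 7 of 15 such fits. Normexp correction turned all 3 directions (-1.47, -0.79 and -1.36), and it also lowered the median change of all probes. The second PARP11 probe, A_24_P59494, had vector tumors from -5.87 to -4.43 that enclosed every other tumor except 1 of K278R at -4.36, and it was not called.

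PARP16, which sits in the membrane of the endoplasmic reticulum and acts in the unfolded protein response, read -2.54, -2.91 and -2.21 in vector, -1.84, -2.06 and -2.13 in MOAP-1 and -1.99, -2.13 and -2.15 in K264R tumors. Both of these groups lay wholly above vector. K278R tumors, at -2.31, -2.50 and -2.23, overlapped it, and RASSF1A tumors lay at -2.80, -2.87 and -2.72. The changes of 0.54 ± 0.15 (adjusted p 0.0163) in MOAP-1 and 0.46 ± 0.15 (adjusted p 0.0298) in K264R passed the adjusted p but not 1.5-fold. In K278R the change was 0.21 ± 0.15 (adjusted p 0.33).

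PARP8, a little-studied relative of PARP6, was printed 10 times on each array. The SD over those spots was 0.043 to 0.075 within an array, against an SD of up to 0.27 between tumors of 1 construct. Its levels ran from -1.85 to -1.31 in vector and from -1.77 to -1.32 in all other tumors, and no comparison called it. The MOAP-1 change was 0.15 ± 0.12 (95% interval -0.11 to 0.42).

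PARP4, the enzyme of the vault particle, was not called at either probe. At A_32_P144342 vector tumors read 0.62, 0.78 and 0.81 and K264R tumors 0.42, 0.42 and 0.47, a change of -0.30 ± 0.13 (adjusted p 0.0965). MOAP-1 tumors read 0.67, 0.08 and 0.55. At A_33_P3303259 the K264R tumors had the lowest mean, with -2.86, -2.81 and -2.85, and the K278R tumors the highest, with -2.42, -2.21 and -2.46. The moderated F test across the 5 constructs passed at this second probe (adjusted p 0.0185) though none of the 7 pairwise comparisons did.

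The tankyrases gave different pictures. TNKS2 read -2.79, -2.80 and -2.80 in vector, -2.32, -2.18 and -2.24 in MOAP-1, -1.99, -2.11 and -1.96 in K264R, -2.60, -2.55 and -1.88 in K278R and -2.62, -2.73 and -2.61 in RASSF1A tumors. All tumors of the other constructs lay above the vector tumors. TNKS2 rose by 0.77 ± 0.15 in K264R (1.71-fold, adjusted p 0.00171), and that call held in all 15 fits with 1 tumor left out but not under normexp (0.18, adjusted p 0.76). Normexp also lowered the median change of all probes in that comparison. In MOAP-1 the change of 0.55 ± 0.15 (adjusted p 0.0152) and in K278R that of 0.45 ± 0.15 (adjusted p 0.0489) stayed under 1.5-fold. K264R and MOAP-1 were not shown to differ here (MOAP-1 minus K264R -0.23, 95% interval -0.55 to 0.10). TNKS read -0.02, -0.34 and -0.47 in vector and -0.12, -0.02 and 0.55 in MOAP-1 tumors, the groups of all constructs overlapped, and the MOAP-1 change of 0.42 ± 0.22 (95% interval -0.05 to 0.89) was not called.

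Counted over the family, 5 of 14 probes (4 genes) were called in MOAP-1 against vector, all higher, where 16.6% of all kept probes were called and 9.87% were called higher. K264R had 5 probes called (5 genes), all higher, where 19.5% of all probes were called and 9.32% were called higher. K278R had 4 (4 genes), all higher, beside 10.9% of all probes called and 7.71% called higher. The median change over the 14 probes was 0.48, 0.38 and 0.42 in MOAP-1, K264R and K278R, beside 0.02, -0.05 and 0.06 over all kept probes. These 3 comparisons share the vector tumors. Groups did not overlap at 9 of 14 probes in each, where 48.5%, 52.6% and 37.3% of all probes did not, and also at 9 of 14 in MOAP-1 against RASSF1A (51.1% of all probes). Across the 5 constructs, the F test passed at 8 of 14 probes and at 43.3% of all probes.

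Vector tumors shared a slide with RASSF1A tumor 3 and with no MOAP-1, K264R or K278R tumor, so for these 3 comparisons slide and construct cannot be told apart. MOAP-1 and RASSF1A tumors shared no slide either. Within the vector slide, RASSF1A tumor 3 minus the mean of the vector tumors was 0.21 at PARP1 A_33_P3236921, -0.04 at PARP3 and 0.03 at PARP6 A_33_P3313302. Within the slide that MOAP-1 tumor 2 shared with the K278R tumors, MOAP-1 minus K278R was 0.44, 0.06 and 0.09 at the same 3 probes.

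**Figure D3:**
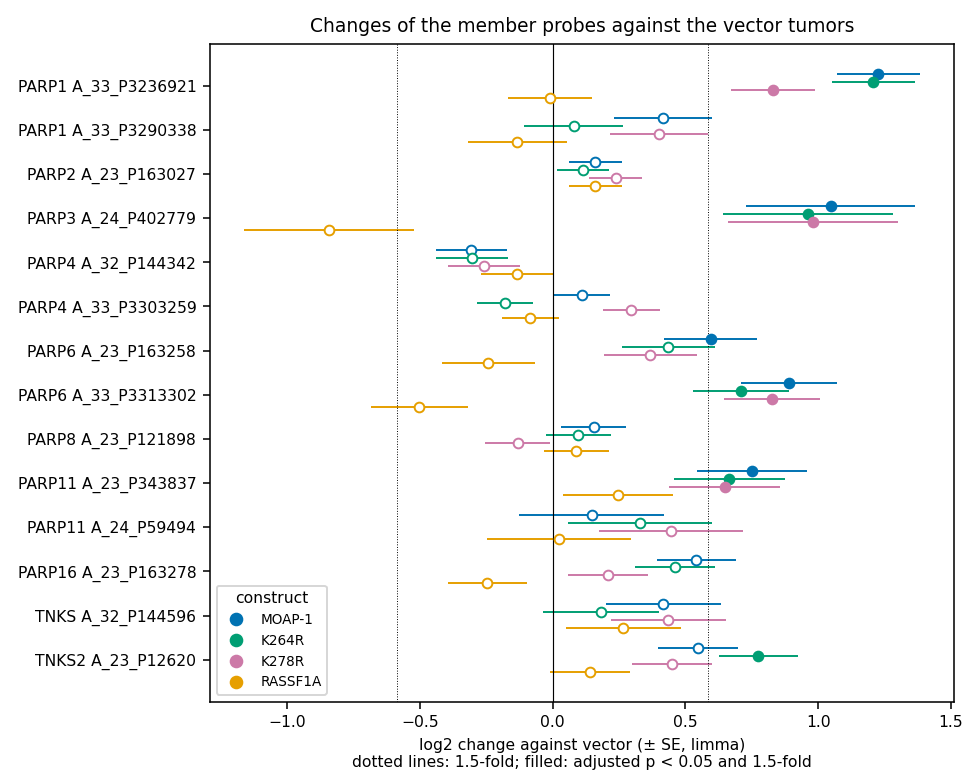
Log2 change against vector (horizontal axis, limma estimate ± SE) of the 14 probes (vertical axis) in MOAP-1, K264R, K278R and RASSF1A tumors, 3 per construct; filled points were called and dotted lines mark 1.5-fold. The filled points are all to the right of 0, 5 for MOAP-1, 5 for K264R and 4 for K278R, and no RASSF1A point is filled.

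RASSF1A tumors did not differ from vector tumors at any member probe by limma's adjusted p, and 0% of all probes were called in that comparison. 2 of the 14 had an unadjusted p under 0.05, PARP3 (-0.84 ± 0.32, limma adjusted p 0.36) and PARP6 A_33_P3313302 (-0.50 ± 0.18, limma adjusted p 0.35). How many of all probes passed that unadjusted threshold is not given here. Without RASSF1A tumor 3, which was scanned on the same day and slide as the vector tumors while tumors 1 and 2 were scanned later, both were called lower (-1.24, adjusted p 0.0215, and -0.77, adjusted p 0.00793). In that fit slide, scan day and construct cannot be told apart. The share of all probes it called is not given here, so these calls are not particular to the members. The methods' t-test called none.

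MOAP-1 against RASSF1A, where slide and construct also cannot be told apart, called 5 of 14 probes, all higher, where 21.2% of all probes were called and 13.0% called higher. PARP3 differed most, by 1.89 ± 0.32 (3.71-fold, adjusted p 0.000603), then PARP6 A_33_P3313302 by 1.39 ± 0.18 (2.63-fold, adjusted p 0.000114) and PARP1 A_33_P3236921 by 1.24 ± 0.16 (2.36-fold, adjusted p 9.59e-05). PARP6 A_23_P163258 was 0.84 ± 0.18 higher (adjusted p 0.00237) and PARP16 0.79 ± 0.15 higher (adjusted p 0.00133). PARP1 A_33_P3290338 reached adjusted p 0.0335 at a change of 0.55, short of 1.5-fold. RASSF1A tumors 1 and 2 were the only arrays of the later scan day. With scan day as a block, this contrast therefore rested on RASSF1A tumor 3 alone. MOAP-1 was then 1.02 higher at PARP1 A_33_P3236921 and 0.86 higher at PARP6 A_33_P3313302.

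MOAP-1 was not distinguishable from its lysine mutants at any member probe by limma's adjusted p. Against K264R, 0 of 14 probes were called where 0.00327% of all probes were, and 1 of 14 had an unadjusted p under 0.05. Against K278R the counts were 0 called, with 0% of all probes called, and 3 at unadjusted p under 0.05. The share of all probes at that unadjusted threshold is not given here, so those counts are not a result about the family. The methods' t-test called 0 in both. For PARP1 A_33_P3236921 the MOAP-1 tumors lay above all K278R tumors, with a difference of 0.40 (95% interval 0.06 to 0.74, adjusted p 0.48), and the difference from K264R was 0.02 (-0.32 to 0.36). For PARP3 the interval ran from -0.60 to 0.78 against K264R and from -0.62 to 0.76 against K278R, which leaves room for differences of more than 1.5-fold either way. For PARP6 A_33_P3313302 it ran from -0.21 to 0.57 and from -0.33 to 0.46.

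**Figure D4:**
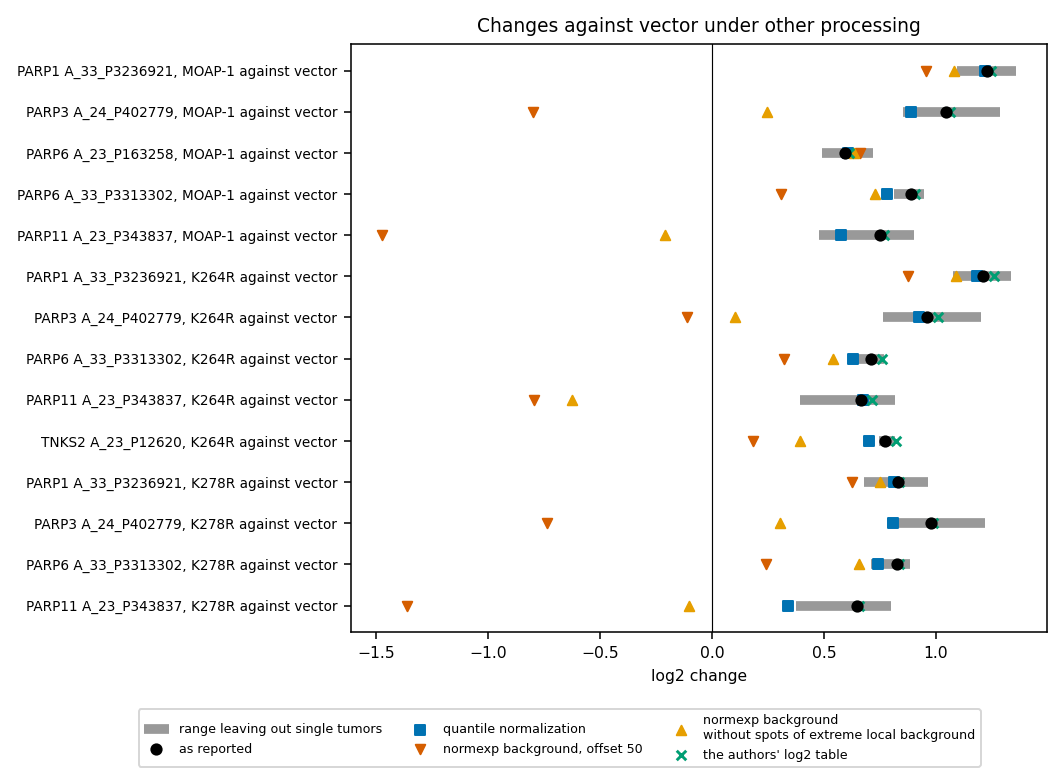
Log2 change against vector (horizontal axis) of the 14 pairs of probe and construct called against vector (vertical axis), as reported, in the range over fits leaving out single tumors, and under 4 other ways of processing the arrays. PARP1 A_33_P3236921 stays between 0.63 and 1.36 in all 3 constructs, whereas PARP11 A_23_P343837 moves to the left of 0 under both normexp settings and PARP3 under normexp with all spots.

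The remaining genes of ADP-ribose metabolism were read at the brightest kept probe of each gene, for which 15% of genes were called in MOAP-1 against vector, 9.14% higher, with a median of 0.01. In K264R 18.4% of genes were called and 9.51% called higher, and in K278R 9.56% and 6.6%. Of 7 other PARP genes (TIPARP, PARP9, PARP10, PARP12, ZC3HAV1, PARP14 and PARP15), 6 had a kept probe and none was called in MOAP-1 against vector by limma (median 0.12, range -0.28 to 0.48), with 1 at an unadjusted p under 0.05. How many of all genes passed that unadjusted threshold is not given here. PARP12, an interferon-induced member chosen here after its values were seen, was called in K264R (0.61, adjusted p 0.0307), in K278R (0.63, adjusted p 0.0423) and in MOAP-1 against RASSF1A (0.82, adjusted p 0.00623).

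Among 10 genes for removal of ADP-ribose and the PARP1 cofactor HPF1, 2 were called higher in MOAP-1 against vector and none lower (median 0.22). They were MACROD2 (0.94, adjusted p 0.00185), which removes single ADP-ribose from proteins, and ADPRS (0.87, adjusted p 0.0192), which removes it from serine. Both were also called in K264R (1.08 and 0.96) and K278R (0.66 and 0.83). Of 9 kept among 10 genes that work with PARP1 and PARP2 in single-strand break repair, 2 were called higher and none lower (median -0.07). These were POLB (1.08, adjusted p 0.000778), the gap-filling polymerase, and FEN1 (0.99, adjusted p 0.00166), the flap nuclease. In K264R their changes were 1.09 and 1.05, both called, and XRCC1, the scaffold that binds ADP-ribose chains, was not called in MOAP-1 (0.06 ± 0.11). In K278R, FEN1 was called (0.85) and POLB stayed under 1.5-fold (0.54, adjusted p 0.0436).

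Of 13 genes, tankyrase substrates and the ligase RNF146, 3 were called higher in MOAP-1 and none lower (median 0.02). RNF146, the ligase itself, rose by 0.90 (adjusted p 0.0108), AXIN1 by 0.76 (adjusted p 0.0298) and AMOT, a regulator of Hippo signaling, by 0.75 (adjusted p 0.0344). In K264R 2 of the 13 were called, RNF146 (1.02) and AMOT (0.94), and in K278R 2, AXIN1 (0.72) and AMOTL1 (0.92), the last named after its value was seen. None of the 8 kept among 9 genes of NAD synthesis, which supply the substrate of the family, was called by limma in MOAP-1 against vector (median 0.09, range -0.45 to 0.33), with 2 at an unadjusted p under 0.05. The share of all genes at that unadjusted threshold is not given here.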

How the data were processed

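Gene expression was measured in 15 HCT116 xenograft tumors, 3 for each of 5 constructs, on Agilent human arrays (design 026652). For each tumor the authors supplied the scanner output as Agilent Feature Extraction wrote it (version 10.5.1.1 in the file headers, 9.1 in the submitters' processing notes). As deposited, its processed signal is an intensity that the software corrected for background, and its median spot and background signals are uncorrected intensities; none was scaled from array to array. A log2 table that the authors made in GeneSpring GX served only as an alternative.

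Control and outlier spots were left out, and the log2 processed signal was taken relative to its array's 75th percentile (495.8 to 1400 in signal units) and averaged over the spots of a probe. Of 34127 probes, 30585 were kept because some construct had all 3 tumors well above background. A single limma fit (version 3.58.1, R 4.3.3) covered the 15 arrays, with construct as its single term and 10 residual degrees of freedom; the code was tested on simulated data. No spot was saturated. The number of tumors limits the precision. Accessions were named through the RefSeq table of GRCh38.p14 (25422 probes, 74.5%), which also gave the promoters. Differences between probes of 1 gene were compared with exact permutation tests. Members and lists were chosen with earlier results of these data known. All member probes were named, and of other lists the genes called in MOAP-1 against vector, at most 3 a list. Replicate numbers were not used to pair tumors, since only 15 of 30 same-numbered pairs had deviations correlated above 0.1 (median 0.11, against -0.04 for other pairs). Alternatives covered background correction, normalization, filters, slide and scan day, the methods' t-test and leaving out each tumor.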

Additional observations from a re-analysis of the deposited data

How the results depend on the processing

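Of the 19 calls at single probes, all 19 were kept in the authors' log2 table and with outlier spots kept. With array weights, with slide as a random block (consensus correlation -0.08) or with a replicate block, 18 were kept. In none of these 19 calls did the constructs compared share a slide, so the slide block cannot separate slide from construct. The replicate numbers did not meet the condition for pairing, since 15 of 30 same-numbered pairs correlated above 0.1 (-0.25 to 0.37) and 4 of 15 arrays correlated best with their own number. The block ended 1 call, PARP11 in K278R (adjusted p 0.0521). Slide as a fixed block could be fitted only for RASSF1A against vector and MOAP-1 against K278R. Each contrast then rested on a single array, RASSF1A tumor 3 or MOAP-1 tumor 2. Neither comparison had a call to lose, so this setting tests none of the calls.

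The count of member probes called in MOAP-1 against vector, 5 as reported, was 3 after quantile normalization, 1 after normexp background correction, 3 after normexp without the 18 spots of extreme local background and 2 by the methods' t-test after Benjamini-Hochberg. For K264R, also 5, these were 1 (normexp), 2 (without those spots, 1 higher and 1 lower) and 3 (t-test). For K278R, 4 as reported, they were 2 (quantile), 0 (normexp), 2 (without those spots), 2 without a filter on dim probes, 1 with only the arrays compared and 0 (t-test). At the methods' own threshold, an unadjusted p under 0.05 with 1.5-fold, the t-test gave 4, 4 and 3 for these comparisons. For MOAP-1 against RASSF1A, 5 as reported, normexp gave 3. With scan day as a block this comparison rested on RASSF1A tumor 3 alone, so no count is given for it. The F test called 2 after normexp, against 8. Leaving out 1 tumor gave 3 to 5 calls for MOAP-1, 3 to 5 for K264R, 2 to 4 for K278R, 0 to 2 for RASSF1A, 5 to 6 for MOAP-1 against RASSF1A, 0 to 0 against either mutant and 7 to 9 in the F test. These counts are of member probes alone. The share of all probes called under each setting is not given here. A change in a count was therefore not read as particular to the family.

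Normexp turned PARP3 to -0.80, -0.11 and -0.74 and PARP11 A_23_P343837 to -1.47, -0.79 and -1.36 in MOAP-1, K264R and K278R. Without the extreme spots PARP11 was -0.21, -0.62 (adjusted p 0.0064) and -0.10. Normexp moved the median of all probes to -0.53, -0.31 and -0.46 and, without those spots, to -0.16, -0.28 and -0.09. Both probes are dim, with spots at 1.14 to 3.38 (PARP3) and 1.05 to 1.61 (PARP11) times their local background, which limits precision. What turned them under normexp was not tested.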

Other observations

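Genes whose levels followed PARP1 and PARP6 most closely were looked up over the 15 tumors, without a test, since the tumors share constructs and slides. For PARP1 A_33_P3236921 these were RBMX2 (Pearson r 0.992), TBCK (0.991) and TUBGCP5 (0.991), and 13.6% of all kept probes had r above 0.8. For PARP6 A_33_P3313302 they were ALKBH5 (r 0.991), an RNA demethylase, RAB5C (0.988), an endosomal GTPase, and PLAU (0.987), the urokinase plasminogen activator, and 13.1% of kept probes had r above 0.8.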
